A study of Mus musculus with 4 samples.

Results

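The genes described here encode the unfolded protein response (UPR) and the protein folding and degradation machinery of the endoplasmic reticulum (ER). The 33 genes were chosen by name and role, with no threshold on measured values but with earlier results of these data known, out of 29676 gene names on a whole-genome mouse array, and they were read by 43 probes. They comprise 6 genes of the sensors and their signalling, 11 chaperones and cochaperones, 7 oxidoreductases and 9 genes of ER-associated degradation. Expression was measured in cultured mouse astrocytes, called AECs (astrocyte-enriched cultures), that were left untreated or kept for 15 h under oxygen-glucose deprivation (OGD, an in vitro model of ischaemia). Each group held 2 independent cultures, with 1 array for each culture. All cultures came from the cortex of newborn ICR mice and had been given PLX3397, a CSF1R inhibitor that depletes microglia, so the untreated AECs carried that treatment too. In the OGD group a glucose-free medium and hypoxia were applied together, so the effects of lost oxygen, lost glucose and the change of medium cannot be told apart.

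Proteins that enter the secretory pathway fold in the ER lumen with the help of chaperones, and disulfide bonds are formed there by oxidoreductases. When unfolded protein accumulates, the membrane sensors IRE1α (encoded by *Ern1*), PERK (encoded by *Eif2ak3*) and ATF6 start the UPR, which slows translation and raises transcription of ER folding and degradation genes. Proteins that fail to fold are extracted from the ER, ubiquitinated and degraded by the proteasome. Oxygen is the final electron acceptor in disulfide formation, and glucose feeds the glycan precursors of glycoproteins, so oxygen and glucose deprivation are both classic inducers of this response in cultured cells.

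Each level below is the log2 probe signal minus the log2 of the 75th percentile signal of its array. That percentile was 2135 and 2164 in the untreated arrays and 887 and 776 in the OGD arrays, so raw signals were lower overall after OGD, and 73.0 to 73.7% of probe spots were well above background in untreated AECs against 64.5 to 66.2% after OGD. A change on this scale is therefore relative to the bulk of the array. With scaling to the spike-in controls (control RNA read by its own probes on the array) the median log2 change of all probes moved by -1.29, from 0.18 to -1.11. A fixed amount of total RNA was labelled for each array, so neither scale measures RNA per culture. In bulk cultures, fewer cells of a type and less RNA per cell cannot be told apart. All 10 astrocyte markers, *Gfap* and *Aqp4* among them, were well above background on all 4 arrays.

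Relative to the array's 75th percentile, 24 of the 33 genes were higher after OGD and 4 were lower at an adjusted p under 0.05 (limma, Benjamini-Hochberg over 28163 probes tested), whereas with spike-in scaling 4 were higher and 22 lower. Over all 21009 genes tested, 37.1% were called higher and 27.9% lower on the percentile scale, and 3.85% higher and 83.4% lower with spike-in scaling. The median log2 change of the 33 genes was 0.69 beside 0.16 for all genes, and -0.59 beside -1.13 with spike-in scaling. The distance between the medians was thus 0.53 under both, and over the settings that kept the brightest probe of each gene it lay between 0.16, with normexp background correction, and 0.60. Changes of over 2-fold upward were called for 10 genes (background 12.7%): *Ern1*, *Ppp1r15a*, *Ppp1r15b*, *Dnajb9*, *Hsp90b1*, *Ero1l*, *P4hb*, *Pdia4*, *Herpud1* and *Derl1*. Changes of over 10-fold were called for *Ern1* and *Ero1l* (background 0.709%), that of *Ern1* only by a probe that is the brightest because of its OGD signal. Downward changes of over 2-fold (background 15.1%) or over 10-fold (background 0.562%) were called for 0 of the 33 by limma and by the methods' t-test, and 5 were lower by any amount at an unadjusted p under 0.05. The untreated and OGD arrays did not overlap in 31 of the 33 genes, beside 84.8% of all genes. The exceptions were *Atf6* and *Edem2*. Calls depended on the untreated arrays: with either left out, fewer genes were called higher, and the genes called lower lost that call. Over all probes, too, fewer were called in those settings. There the lone untreated array was assumed to vary like the OGD arrays. Those varied more, with an SD over probes of the replicate difference of 0.39, against 0.22 for the untreated arrays. With 2 arrays in each group, no exact permutation test of a single gene can go below p = 0.333, so single-gene calls rest on limma's pooling of the spread across probes.

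**Figure D1:**
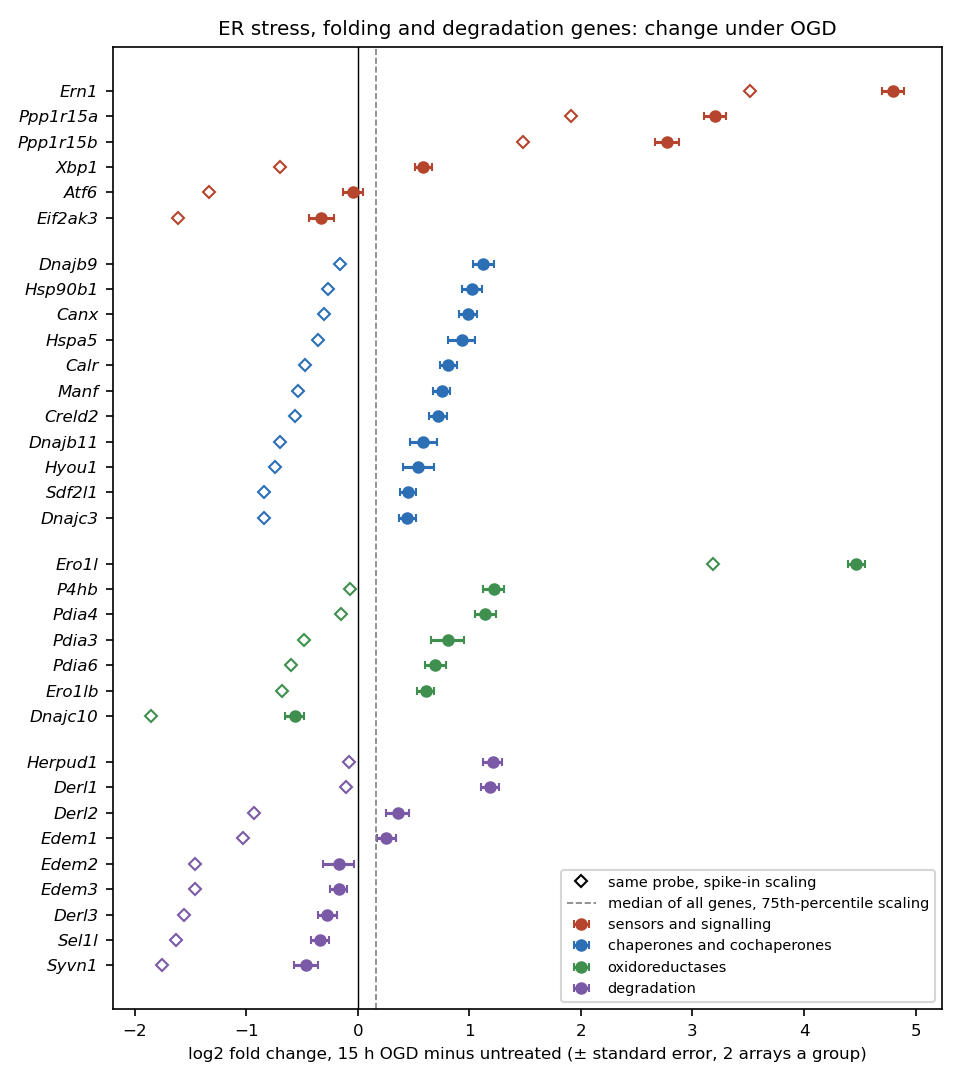
Log2 fold change (x axis, 15 h OGD minus untreated, 2 arrays in each group) of the brightest probe of each of the 33 genes, grouped by role. Filled points with bars give the estimate and its standard error on the 75th-percentile scale, open diamonds the same probe with spike-in scaling, and the dashed line the median of all genes, 0.16. *Ern1*, *Ero1l*, *Ppp1r15a* and *Ppp1r15b* stood above 0 on both scales, while all 11 chaperones were above 0 on the percentile scale and below 0 with spike-in scaling.

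The sensors themselves differed widely. *Ern1*, which encodes the kinase and endoribonuclease that splices *Xbp1* mRNA, had a change that depended on the probe read, and is given first by its brightest probe. That probe gave processed signals of 95.1 and 105 in untreated AECs and 1097 and 1054 after OGD. The OGD arrays were far above the untreated arrays even before scaling. Normalized levels were -4.43 ± 0.088 in untreated AECs and 0.37 ± 0.095 after OGD (SD, n = 2), a log2 change of 4.80 ± 0.099 (SE) or 27.9-fold (limma, adjusted p = 0.000719), larger than the change of 99.8% of genes. It stayed at 3.51 with spike-in scaling (limma, adjusted p = 5.92e-05).

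The brightest probe is assigned to an Ensembl transcript, ENSMUST00000106801.7, and lies at chr11:106275124-106275183 on the minus strand (mm9), whereas the probe for the RefSeq transcript NM_023913 lies 16176 bases further downstream, at chr11:106258948-106259007. The RefSeq probe gave signals of 118 and 119 in untreated AECs and 81.5 and 90.0 after OGD. Its log2 change was 0.90 ± 0.14, or 1.87-fold (limma, adjusted p = 0.00838), and with spike-in scaling it was -0.39 (limma, adjusted p = 0.0476). The RefSeq probe was therefore higher only relative to the rest of the array, and its direction turned with spike-in scaling. The other *Ern1* probes, A_55_P2112560 and A_55_P2112564, were not well above background on any array. The choice of the brighter probe as the one that stands for *Ern1* was made over all 4 arrays, its own OGD signal included. By the probe brightest on the untreated arrays, which is the RefSeq probe, *Ern1* stood at 0.90, and by the mean over its probes at 2.85, below the 4.47 of *Ero1l* in both cases.

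*Eif2ak3* and *Atf6* did not pass the test. *Eif2ak3*, whose product PERK phosphorylates eIF2α, gave signals of 2477 and 2559 in untreated AECs and 895 and 671 after OGD, a log2 difference of -0.33 ± 0.11 (limma, adjusted p = 0.0632). *Atf6*, which encodes the sensor that is cleaved to a transcription factor, gave 862 and 906 in untreated AECs and 369 and 297 after OGD, a log2 difference of -0.04 ± 0.088 (limma, adjusted p = 0.688). The normalized *Atf6* values of the groups overlapped. With spike-in scaling *Eif2ak3* was at -1.61 and *Atf6* at -1.33, both called lower (limma, adjusted p = 0.000309 and 0.000396). So were 83.4% of all genes, and the median of all genes was -1.13. *Eif2ak3* was also called lower with a trended and robust prior, with normexp background correction, with the percentile taken over probes well above background, with only probes well above background on all arrays, and without OGD replicate 1. Measured within each array, the log2 difference of *Atf6* from *Ern1* went from a mean of 3.14 to -1.70 and that of *Eif2ak3* from *Ern1* went from 4.65 to -0.47. Neither change depends on the scaling of whole arrays, but both rest on the brighter *Ern1* probe. Exact permutation gave p = 0.333, the smallest possible, for both, as for all 10 pairs of genes compared in this way.

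The other large changes in this role were in the eIF2α phosphatase subunits, which bring protein phosphatase 1 to eIF2α and so restore translation. *Ppp1r15a* (GADD34), the stress-inducible subunit, gave signals of 10299 and 11020 in untreated AECs and 38446 and 37358 after OGD. Its probe lies at chr7:52778320-52778379 on the minus strand (mm9). Both OGD arrays exceeded both untreated arrays before any scaling, and the log2 change was 3.20 ± 0.096, or 9.21-fold (limma, adjusted p = 0.000719), and 1.92 with spike-in scaling (limma, adjusted p = 0.000126). *Ppp1r15b* (CReP), described as the constitutive subunit, gave 200 and 229 in untreated AECs and 577 and 551 after OGD. Its log2 change was 2.77 ± 0.11, or 6.82-fold (limma, adjusted p = 0.000757), and 1.48 with spike-in scaling (limma, adjusted p = 0.00036). Both subunits thus rose on both scales, and their within-array difference moved by 0.43 toward *Ppp1r15a* (exact permutation p = 0.333, the smallest possible).

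*Xbp1*, the transcription factor activated by IRE1α splicing, was read by a single probe that gives no information on splicing. Signals were 24433 and 24696 in untreated AECs and 15587 and 13043 after OGD, so the raw signal was lower while the normalized level was higher, by 0.59 ± 0.077 on the log2 scale (limma, adjusted p = 0.0054). The direction turned with spike-in scaling, at -0.70 (limma, adjusted p = 0.00264), and the call was lost with quantile normalization and when either untreated array was left out. Over the whole role, 4 of 6 genes were called higher (*Ern1*, *Ppp1r15a*, *Ppp1r15b* and *Xbp1*), beside 37.1% of all genes. With spike-in scaling 3 of the 6 were called higher and 3 lower, beside 3.85% and 83.4%.

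**Figure D2:**
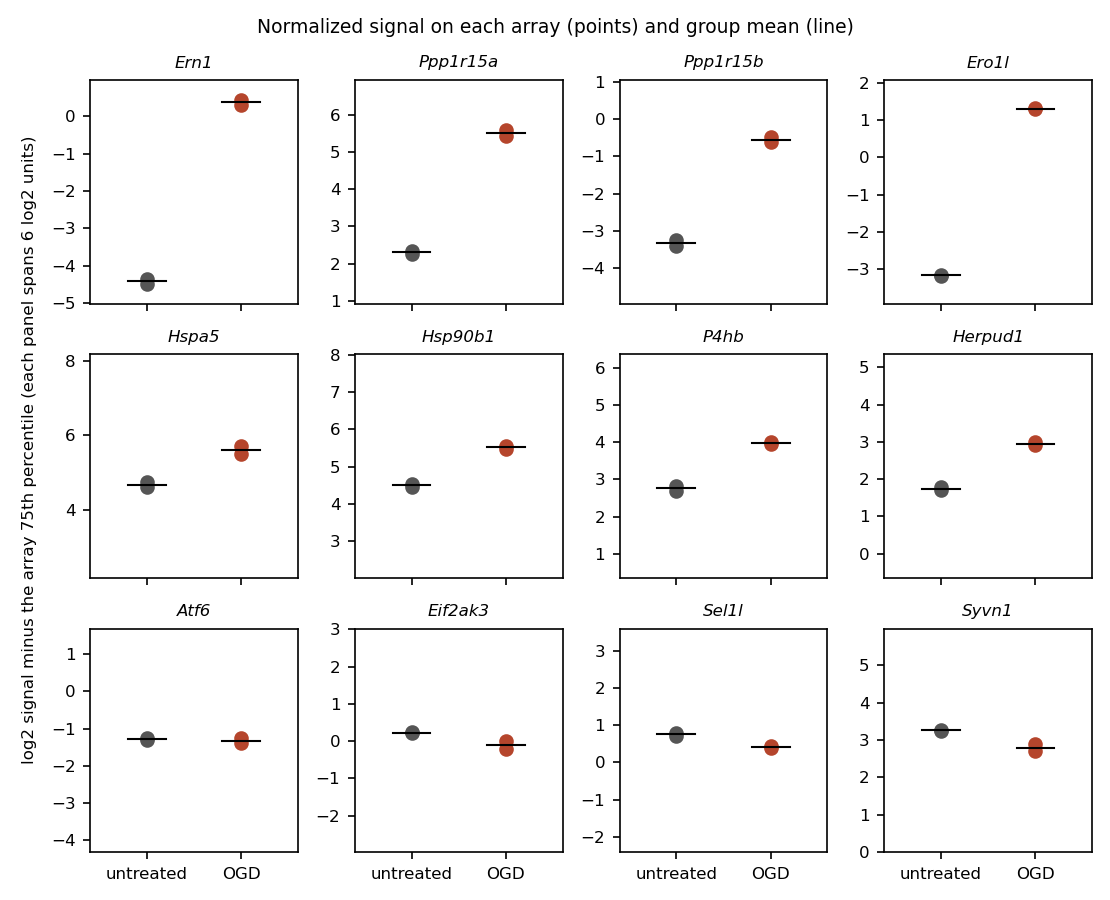
Normalized signal (y axis, log2 signal minus the array's 75th percentile, each panel spanning 6 log2 units) of 12 genes on each of the 4 arrays, with points for arrays and lines for group means. *Ern1* and *Ero1l* moved by over 4 log2 units and the *Ppp1r15* genes by about 3, *Hspa5*, *Hsp90b1*, *P4hb* and *Herpud1* by about 1, *Atf6* overlapped between groups, and *Eif2ak3*, *Sel1l* and *Syvn1* lay slightly lower after OGD; with spike-in scaling the changes of *Hspa5*, *Hsp90b1*, *P4hb* and *Herpud1* were below 0.

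The promoters of these genes are shown because many folding and degradation genes share an ER stress response element, ERSE, to which ATF6 and XBP1 bind together with NF-Y. The promoter window ran from 250 bases before to 50 bases after each RefSeq start site (GRCm38.p6), and 28 of the 33 genes had a promoter entry. Those not matched were *Atf6*, *Derl1*, *Hyou1*, *Manf* and *Ppp1r15b*. The letters of ERSE, CCAAT and CCACG separated by 9 bases, searched on both strands like the other motifs, occurred in 10 of the 28 genes and in 0.119% of 32851 promoters: *Calr*, *Canx*, *Creld2*, *Derl3*, *Dnajc3*, *Ero1lb*, *Hsp90b1*, *Hspa5*, *Pdia6* and *Syvn1*. A shorter form, ERSE-II (ATTGG and CCACG separated by 1 base), occurred in *Dnajb11* and *Herpud1* and in 0.0365% of promoters. The C/EBP-ATF response element read by ATF4 (TGATGNAA, 3.97% of promoters) occurred in *Herpud1*. The hypoxia response element bound by HIF-1, searched only as the letters ACGTGC (5.91% of promoters), occurred in *Derl3*, *Dnajb9* and *Ero1l*. Other forms of this element were not searched and are not marked below. The UPR element TGACGTGG, in 0.676% of promoters, was in none of these 28 windows. No match in a member overlapped a match to another of these motifs. A match is a run of letters, and binding was not measured. The stretches below carry the matched letters in capitals and are written 5′ to 3′ along the gene. The capitals are ERSE for *Hspa5* (chr2:34771980-34772059, plus strand), *Hsp90b1* (chr10:86705525-86705664, minus strand, with 2 matches), *Canx* (chr11:50325774-50325843, minus strand), *Pdia6* (chr12:17266469-17266538, plus strand), *Syvn1* (chr19:6046496-6046565, plus strand) and *Derl3* (chr10:75893213-75893282, plus strand, with its ACGTGC left in lower case). In *Herpud1* (chr8:94386309-94386398, plus strand) they mark the C/EBP-ATF element and then ERSE-II, and in *Ero1l* (*Ero1a* in RefSeq, chr14:45318598-45318667, minus strand) the hypoxia response element on the opposite strand.
Hspa5: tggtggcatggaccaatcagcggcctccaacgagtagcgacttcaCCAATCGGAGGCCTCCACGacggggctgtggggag
Hsp90b1: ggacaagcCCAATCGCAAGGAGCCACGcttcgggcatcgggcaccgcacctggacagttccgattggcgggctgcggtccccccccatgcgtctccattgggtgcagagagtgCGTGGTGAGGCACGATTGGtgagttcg
Canx: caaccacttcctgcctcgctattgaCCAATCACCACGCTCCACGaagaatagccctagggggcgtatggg
Pdia6: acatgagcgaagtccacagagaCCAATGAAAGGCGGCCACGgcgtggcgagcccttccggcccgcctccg
Syvn1: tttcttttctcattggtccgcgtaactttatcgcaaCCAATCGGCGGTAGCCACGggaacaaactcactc
Derl3: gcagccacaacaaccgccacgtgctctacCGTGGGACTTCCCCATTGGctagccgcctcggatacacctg
Herpud1: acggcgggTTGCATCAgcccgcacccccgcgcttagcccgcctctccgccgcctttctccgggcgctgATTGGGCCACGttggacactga
Ero1l: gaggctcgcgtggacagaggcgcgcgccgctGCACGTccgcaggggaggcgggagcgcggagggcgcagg

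The chaperones moved together. All 11 were called higher relative to the array's 75th percentile, with log2 changes from 0.44 to 1.13 and a median of 0.75, whereas with spike-in scaling all 11 were below 0, with a median of -0.54 and 8 called lower. Over all genes 37.1% were called higher, and 83.4% lower with spike-in scaling. Their median lay above that of all genes by 0.59 on either of these scales, and by 0.19 to 0.63 over the settings that kept the brightest probe of each gene. With quantile normalization 5 of the 11 calls were left, and those of *Hspa5* (0.12), *Hsp90b1* (0.23), *Calr* (0.23), *Canx* (0.15), *Creld2* (0.12) and *Dnajb11* (0.19) were lost. Of the 10 genes with ERSE, across all roles, 8 were called higher on the percentile scale, and *Syvn1* and *Derl3* were called lower. Over all genes the shares were 37.1% and 27.9%, but 24 of the 33 members were called higher and 4 lower. The share among ERSE genes was thus close to that of the members as a whole. With spike-in scaling all 10 were below 0, as were 19492 of the 21009 genes tested. The calls for *Syvn1* and *Derl3*, and the higher calls for *Dnajc3*, *Ero1lb* and *Pdia6*, were lost when either untreated array was left out. *Derl3* was at 0.07 with normexp background correction. Among these ERSE genes, quantile normalization left the higher call only for *Dnajc3* and *Ero1lb*.

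*Hspa5* encodes BiP, the main Hsp70 of the ER lumen, which also holds the UPR sensors inactive. Its probe (chr2:34631913-34631972, plus strand, mm9) gave signals of 56729 and 53001 in untreated AECs and 46772 and 34821 after OGD. Raw signal was lower on both OGD arrays, by less than the fall of the array as a whole. Normalized levels were 4.67 ± 0.083 and 5.60 ± 0.17 (SD, n = 2), a log2 change of 0.93 ± 0.12 or 1.91-fold (limma, adjusted p = 0.00512), and -0.36 with spike-in scaling (limma, adjusted p = 0.0549). *Hsp90b1*, the ER Hsp90 (GRP94), gave 49617 and 47569 in untreated AECs and 39522 and 36812 after OGD, a log2 change of 1.02 ± 0.086 or 2.03-fold (limma, adjusted p = 0.00201), and -0.26 with spike-in scaling.

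*Dnajb9*, an ER J protein that helps BiP to hold IRE1α inactive, had the largest change among the chaperones. Its brighter probe gave 7969 and 8194 in untreated AECs and 7655 and 6064 after OGD, a log2 change of 1.13 ± 0.091 or 2.18-fold (limma, adjusted p = 0.00187), and -0.16 with spike-in scaling. A second, dimmer probe that lies 959 bases upstream gave 284 and 275 in untreated AECs and 648 and 701 after OGD. That second probe rose on both scales, with a log2 change of 2.64 ± 0.13 or 6.24-fold (limma, adjusted p = 0.000954) and of 1.35 with spike-in scaling (limma, adjusted p = 0.000478). The probes of *Dnajb9* thus differed in size on the percentile scale. With spike-in scaling the dimmer probe was called higher and the brighter was not called (limma, adjusted p = 0.262).

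The lectin chaperones that hold glycoproteins, *Canx* and *Calr*, had log2 changes of 0.99 ± 0.078 and 0.81 ± 0.074 (limma, adjusted p = 0.00182 and 0.00237). *Manf*, a secreted and ER-resident factor released under ER stress, was at 0.75 ± 0.074, and *Creld2*, another ER stress-induced protein, at 0.72 ± 0.081. For *Canx*, signals were 64085 and 62039 in untreated AECs and 51136 and 45516 after OGD, and with spike-in scaling all 4 genes fell, by 0.30 (*Canx*), 0.48 (*Calr*), 0.54 (*Manf*) and 0.56 (*Creld2*) on the log2 scale. The smallest changes were in 4 further genes. *Dnajb11*, an ER J protein, was at 0.59 ± 0.12, *Hyou1*, a nucleotide exchange factor for BiP, at 0.54 ± 0.14, *Sdf2l1* at 0.45 ± 0.075 and *Dnajc3* at 0.44 ± 0.077. A second *Dnajb11* probe, dim on all arrays, was at -0.05 ± 0.36 and not called (limma, adjusted p = 0.917). Calls for *Dnajb11*, *Dnajc3* and *Sdf2l1* were lost when either untreated array was left out, and that for *Dnajb11* also with the methods' t-test, with quantile normalization and with the mean over its probes. That for *Hyou1* was lost without untreated replicate 1 and without either OGD array, and also with the methods' t-test, with the percentile taken over probes well above background and without the filter on dim probes.

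Among the oxidoreductases, 6 of 7 genes were called higher and 1 lower relative to the array's 75th percentile, while with spike-in scaling 1 was called higher and 4 lower. The shares over all genes were 37.1% higher and 27.9% lower, and 3.85% and 83.4% with spike-in scaling. *Ero1l* encodes ERO1α, the oxidase that passes electrons from protein disulfide isomerase (PDI) to oxygen, and it is a known hypoxia-induced gene. Its probe (chr14:45904192-45904251, minus strand, mm9) gave signals of 242 and 239 in untreated AECs and 2170 and 1948 after OGD. The OGD arrays were far above the untreated arrays before any scaling. Normalized levels were -3.16 ± 0.023 and 1.31 ± 0.025 (SD, n = 2), a log2 change of 4.47 ± 0.076 or 22.1-fold (limma, adjusted p = 0.000719), larger than that of 99.7% of genes, and 3.18 with spike-in scaling (limma, adjusted p = 5.92e-05).

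The paralog *Ero1lb*, which encodes ERO1β, changed far less. It gave signals of 306 and 318 in untreated AECs and 198 and 170 after OGD, a log2 change of 0.61 ± 0.075 or 1.52-fold (limma, adjusted p = 0.00467), which turned to -0.68 with spike-in scaling (limma, adjusted p = 0.00294). Within an array, the log2 difference of the *Ero1l* probe from the *Ero1lb* probe was -0.34 and -0.41 in untreated AECs and 3.46 and 3.52 after OGD. The balance between the paralogs moved by 3.86, or 14.5-fold, toward *Ero1l*, a value that no scaling of whole arrays alters (exact permutation p = 0.333, the smallest possible).

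The PDI family showed smaller changes. *P4hb*, which encodes PDI itself, gave 13835 and 15406 in untreated AECs and 13701 and 12537 after OGD, and its log2 change was 1.22 ± 0.091 or 2.33-fold (limma, adjusted p = 0.00166). *Pdia4* gave 2857 and 2834 against 2452 and 2399, a log2 change of 1.14 ± 0.094 or 2.21-fold (limma, adjusted p = 0.00197). With spike-in scaling these genes were at -0.07 and -0.15, neither called (limma, adjusted p = 0.605 and 0.257). *Pdia3*, the isomerase that works with calnexin and calreticulin, was at 0.81 ± 0.15 and *Pdia6*, which binds IRE1α, at 0.69 ± 0.094 (limma, adjusted p = 0.0127 and 0.0058). A second, downstream *Pdia6* probe was at 0.23 ± 0.11 and not called (limma, adjusted p = 0.141). *Pdia6* was at -0.17 with quantile normalization, and both were below 0 with spike-in scaling (-0.48 and -0.59). The calls for *Pdia3*, *Pdia6* and *Ero1lb* were lost when either untreated array was left out, and that for *Pdia3* also with quantile normalization and the methods' t-test.

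*Dnajc10*, the ER reductase ERdj5 that opens disulfides ahead of degradation, was the oxidoreductase called lower. Its brighter probe gave 10494 and 10204 in untreated AECs and 2790 and 2612 after OGD, a log2 change of -0.57 ± 0.084, or 1.48-fold lower (limma, adjusted p = 0.00738). The other probe, which lies 36456 bases upstream on the mm9 genome, gave 310 and 340 against 226 and 204 and was higher relative to the array, at 0.78 ± 0.086 or 1.72-fold (limma, adjusted p = 0.00356), with raw signals lower after OGD in both. The direction given for *Dnajc10* is thus that of 1 probe, the mean over its probes was 0.11, and the call was lost when either untreated array was left out.

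Of the 9 degradation genes, 3 were called higher, 3 lower and 3 were not called, shares near the 37.1% and 27.9% of all genes. Their median log2 change of -0.17 lay below the 0.16 of all genes, by 0.33 on the percentile and spike-in scales and by 0.15 to 0.41 over the settings that kept the brightest probe. With spike-in scaling 7 of the 9 were called lower, beside 83.4% of all genes, with a median of -1.46. *Herpud1*, a membrane adaptor of the degradation complex and a strong UPR target, had the largest rise. It gave 6932 and 7457 in untreated AECs and 7065 and 5855 after OGD, so the raw ranges overlapped, while the normalized levels of 1.74 ± 0.061 and 2.95 ± 0.056 (SD, n = 2) did not. Its log2 change was 1.21 ± 0.085 or 2.32-fold (limma, adjusted p = 0.0015), and -0.08 with spike-in scaling (limma, adjusted p = 0.575).

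The core ubiquitin ligase went the other way. *Syvn1*, which encodes the ligase HRD1, gave 20371 and 20911 in untreated AECs and 5750 and 5799 after OGD, a log2 change of -0.46 ± 0.10 (limma, adjusted p = 0.022). *Sel1l*, its stabilising partner, gave 3517 and 3724 against 1204 and 1014, a log2 change of -0.34 ± 0.08 (limma, adjusted p = 0.0251). Both were lower on the spike-in scale too, at -1.75 and -1.63. Each of these calls was lost when either untreated array was left out. The call for *Syvn1* was also lost with the methods' t-test, and that for *Sel1l* without OGD replicate 2, with median scaling, without the filter on dim probes and with the replicate number as a block.

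The Derlins, membrane proteins through which substrates leave the ER, differed from one another. *Derl1* gave 7496 and 7966 in untreated AECs and 7370 and 6216 after OGD by its brighter probe, a log2 change of 1.18 ± 0.08 or 2.27-fold (limma, adjusted p = 0.00142), and -0.11 with spike-in scaling. A second *Derl1* probe 1609 bases downstream was at -0.05 ± 0.097 (limma, adjusted p = 0.662). *Derl2* had a change of 0.36 ± 0.11 by its brightest probe (limma, adjusted p = 0.0461), with 0.46 ± 0.086 and -0.41 ± 0.078 by its other probes (limma, adjusted p = 0.0136 and 0.0146), so that the probes of this gene were called in opposite directions. *Derl3* gave 530 and 563 against 182 and 168, a log2 change of -0.27 ± 0.082 (limma, adjusted p = 0.0484), and was at 0.07 with normexp background correction. Within arrays, the *Derl3* to *Derl1* difference moved by -1.45 and the *Derl1* to *Derl2* difference by 0.82, with no overlap between groups in either (exact permutation p = 0.333 for each, the smallest possible). Both values rest on the brighter *Derl1* probe. The second *Derl1* probe, at -0.05, was lower in its change than the brightest *Derl2* probe, at 0.36, so the direction against *Derl2* depends on the probe. It was still above *Derl3*, at -0.27, but by far less than the brighter probe. The *Derl2* and *Derl3* calls lay just inside the threshold and were lost when any 1 of the 4 arrays was left out, under the block, with the methods' t-test and without the filter on dim probes.

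The EDEM proteins, which trim mannose from misfolded glycoproteins and mark them for degradation, did not pass the test on the percentile scale. *Edem1* was at 0.26 ± 0.086, *Edem2* at -0.17 ± 0.14 and *Edem3* at -0.17 ± 0.078 (limma, adjusted p = 0.0625, 0.338 and 0.125). With spike-in scaling all were called lower, at -1.03, -1.46 and -1.46 (limma, adjusted p = 0.000857, 0.000522 and 0.000182). So were 83.4% of all genes, and the median of all genes was -1.13. *Edem1* was called higher with a trended and robust prior, with normexp background correction, with only probes well above background on all arrays, and without OGD replicate 2, and *Edem3* was called lower with the percentile taken over probes well above background. *Edem1* gave 1644 and 1689 in untreated AECs and 856 and 690 after OGD. Relative to each paralog on the same array *Edem1* moved up by 0.43, for *Edem2* and for *Edem3* alike, with groups that did not overlap (exact permutation p = 0.333, the smallest possible). The remaining within-array differences moved by 0.54 for *Dnajb9* over *Dnajb11* and by 0.34 for *Pdia4* over *Pdia3* (exact permutation p = 0.333 for each, the smallest possible), the former by the brighter probe of each gene.

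**Figure D3:**
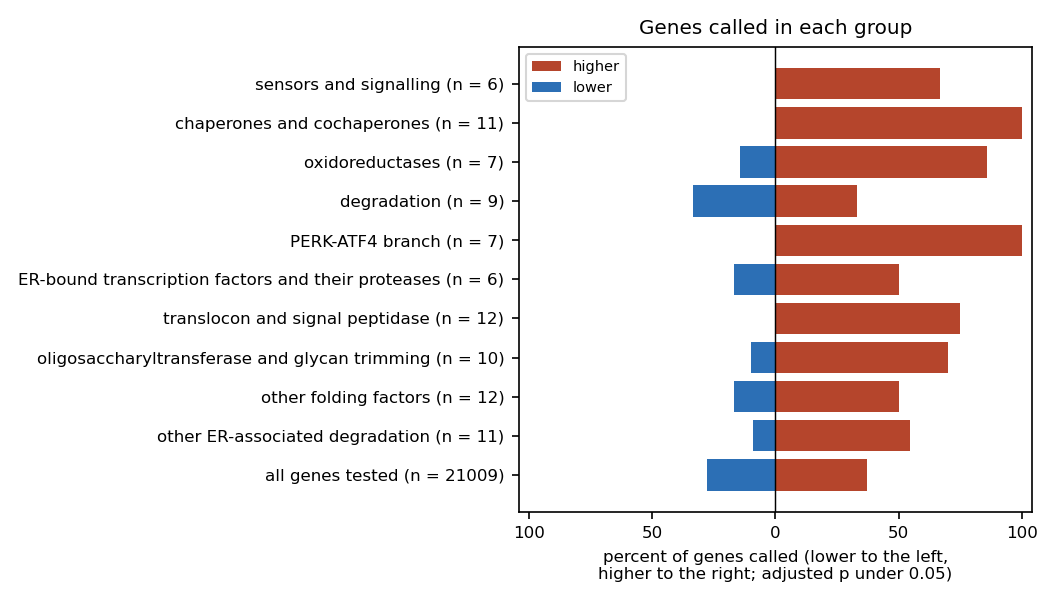
Percent of genes called higher (right) and lower (left) after OGD at an adjusted p under 0.05 on the 75th-percentile scale, for the 4 roles described here, 6 lists of other genes of the pathway and all 21009 genes tested (n is the number of genes tested). All 11 chaperones and all 7 genes of the PERK-ATF4 branch were called higher, beside 37.1% of all genes; with spike-in scaling no chaperone and 5 genes of the PERK-ATF4 branch were above the threshold upward.

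Of the 33 genes, 7 had tested probes at different positions, and in each of the 7 the upstream probe had the larger log2 change. Over all 5526 genes with several tested probes at different positions, this held for 73.2%. The difference of the changes, upstream minus downstream, was 3.90 for *Ern1* (16176 bases apart on the mm9 genome), 1.52 for *Dnajb9* (959 bases), 1.34 for *Dnajc10* (36456 bases), 1.23 for *Derl1* (1609 bases), 0.86 for *Derl2* (2810 bases), 0.64 for *Dnajb11* (7545 bases) and 0.47 for *Pdia6* (253 bases). Distances are genomic and include any introns between the probes. The pair within *Ern1* showed it most plainly: the log2 difference between probes on the same array was -0.31 and -0.18 in untreated AECs and 3.75 and 3.55 after OGD. In *Dnajb11* the downstream probe was well above background on only 1 of the 2 OGD arrays. The cause was not tested.

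**Figure D4:**
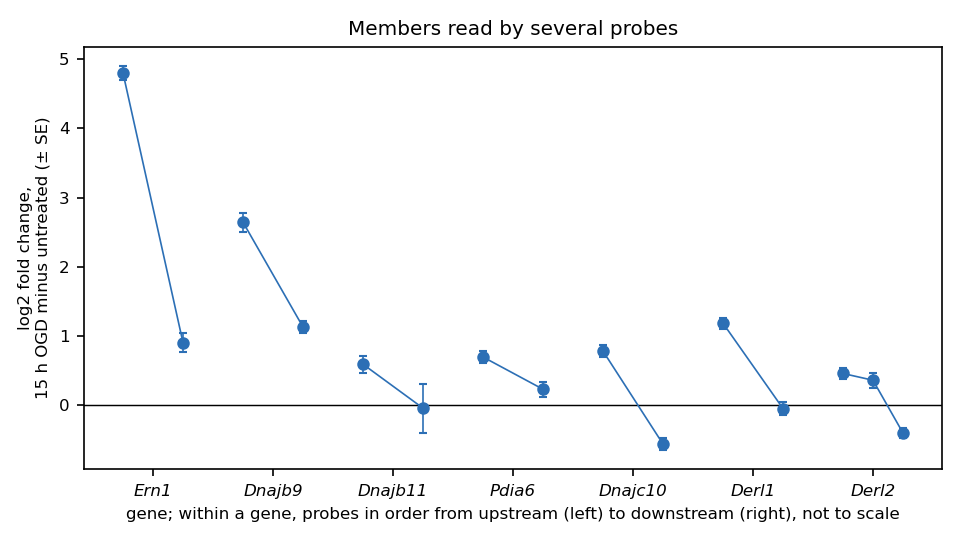
Log2 fold change (y axis, 15 h OGD minus untreated, with standard error, 2 arrays in each group, 75th-percentile scale) of each tested probe of the 7 genes read by several probes, ordered within a gene from upstream (left) to downstream (right) without scale. The left-most probe of *Ern1* stood at 4.80 and the right-most at 0.90, and in *Dnajc10*, *Derl1*, *Dnajb11* and *Derl2* the right-most probe lay below 0; spike-in scaling shifts all points down by 1.29.

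Around these genes, 60 further genes of the same pathway were listed by role, 58 of which had a tested probe. Relative to the array's 75th percentile 38 were called higher and 5 lower, beside 37.1% and 27.9% of all genes. Their median log2 change was 0.59, beside 0.16 for all genes. With spike-in scaling 6 were called higher and 49 lower, beside 3.85% and 83.4% of all genes. The list of the PERK-ATF4 branch stood apart: all 7 genes were called higher, with a median of 2.77. With spike-in scaling 5 of the 7 remained higher and 1 was called lower. PERK activity was not measured, and whether these genes rose through PERK was not tested. *Chac1*, a glutathione-degrading enzyme, gave signals of 2455 and 2307 in untreated AECs and 22372 and 19670 after OGD, a log2 change of 4.51 ± 0.084 or 22.8-fold (limma, adjusted p = 0.000719). *Trib3*, a pseudokinase that feeds back on this branch, was at 4.36 ± 0.079. The smallest changes were in *Asns*, asparagine synthetase, at 1.42 ± 0.19 and in the stress gene *Nupr1* at 0.61 ± 0.11, which turned to -0.68 with spike-in scaling. *Atf4*, the transcription factor of the branch, and *Ddit3* (CHOP), its proapoptotic target, were at 2.00 ± 0.076 and 2.77 ± 0.092, and they are named here outside the rule, for their role and after their values were seen. The *Eif2ak3* transcript itself, as above, was not called.

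The other lists had smaller median changes, from 0.10 to 0.71, beside 0.16 for all genes. Over all genes 37.1% were called higher and 27.9% lower. With spike-in scaling 5 of 6, 12 of 12, 10 of 10, 11 of 12 and 10 of 11 genes were called lower, in the order of the lists below. The share of all genes called lower there was 83.4%. Of 6 other ER-bound transcription factors and their proteases 3 were called higher and 1 lower, with *Mbtps2*, the site-2 protease that cuts ATF6, at 1.44 ± 0.11 and *Mbtps1*, the site-1 protease, at -0.78 ± 0.082 (limma, adjusted p = 0.00174 and 0.00319). A second *Mbtps1* probe was called in the opposite direction, at 1.25 ± 0.086 (limma, adjusted p = 0.00147), so the lower call is that of its brighter probe. Of 12 translocon and signal peptidase genes 9 were called higher, led by *Sec63* at 0.92 and *Sec61g* at 0.88, with *Sec61a1*, the channel subunit, at 0.0031 and not called. Among 10 oligosaccharyltransferase and glycan-trimming genes 7 were called higher and 1 lower, from *Ddost* at 0.88 to *Mogs* at -0.53. Other folding factors split into 6 higher and 2 lower of 12, with *Serp1*, a translocon-associated stress protein, at 1.26 and *Txndc11* at -0.82 by its brighter probe and at 0.15 and not called by another. The lowest change in this list was -1.28, and 1 of its genes was called over 2-fold lower. Of 11 other degradation genes tested 6 were called higher and 1 lower. *Ube2j1*, the ER-anchored ubiquitin-conjugating enzyme, gave 9272 and 9850 in untreated AECs and 19365 and 17364 after OGD, a log2 change of 2.31 ± 0.079 or 4.97-fold (limma, adjusted p = 0.000719). By this brightest probe it rose with spike-in scaling too, by 1.03. Its other probes were at 1.89 and 1.29 on the percentile scale. Spike-in scaling shifts these values down by 1.29, so the rise on both scales does not hold for every probe. *Nploc4* fell by 0.52 on the percentile scale. *Sec63*, *Sec61g*, *Ddost* and *Serp1* were below 0 with spike-in scaling (-0.37, -0.41, -0.41 and -0.03).

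HIF-1 target genes were listed with earlier results of these data known, so they are no independent check of hypoxia. Beside 37.1% of all genes, 10 of the 10 were called higher, with a median log2 change of 1.98. With spike-in scaling 6 of the 10 were called higher and 2 lower, beside 3.85% and 83.4% of all genes. Marker sums of cell types, as signal over the array's 75th percentile, are given beside these targets. The sum over 10 astrocyte markers was 166 and 145 in untreated AECs and 217 and 221 after OGD, with 5 of the 10 called higher, 2 lower and 3 not called on that scale, whereas with spike-in scaling all 10 genes were below 0, with a median log2 change of -0.72 and 8 called lower. That over 8 microglia markers was 2.33 and 2.04 against 6.74 and 6.53, with 6 of the 8 well above background on all arrays, but not *Cx3cr1* and *Ptprc*. On the percentile scale 3 of the 8 microglia genes were called higher, 1 lower and 4 not called, with a median log2 change of 0.27. *Cd68* rose most, by 3.14 ± 0.076 on the log2 scale (1.85 with spike-in scaling, where the other 7 were below 0). Oligodendrocyte-lineage markers summed to 24.4 and 24.6 against 19.8 and 18.4 (7 of 8 well above background on all arrays), neuron markers to 28.5 and 26.5 against 27.8 and 30.9 (5 of 6, with overlapping groups), fibroblast markers to 13.0 and 11.1 against 10.9 and 8.36 (5 of 6) and endothelial markers to 1.67 and 1.75 against 1.41 and 1.29 (3 of 5, the other 2 not well above background on any array). On the percentile scale 3 of 8 oligodendrocyte-lineage genes were called higher and 4 lower, and 1 of 6 neuron genes higher and 2 lower. Of 5 fibroblast genes tested 2 were called lower, and of 3 endothelial genes tested 1 was called lower. All tested genes of these last 4 lists were below 0 with spike-in scaling. The part of these shifts in the changes of the ER genes was not tested.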

How the data were processed

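Per the labels and methods, total RNA from each culture was labelled with Cy3 and hybridised to a 1-colour Agilent mouse 4x44K v2 array, 4 arrays on 1 slide with 1 scan day. The authors' deposited intensity values are Feature Extraction (11.5.1.1) processed signals, background-subtracted per spot, which equal the deposited series table. The study normalized them to the 75th percentile and used an unpaired test. From the processed signals, control and outlier spots were dropped, the log2 values of replicate spots were averaged, and levels were centred on the 75th percentile of the non-control probes of their array. A probe was well above background where at least 0.5 of its spots carried that flag, and it was tested when this held on both arrays of a group and it had a value on all 4 arrays. Groups were compared with limma 3.58.1 (R 4.3.3; lmFit, eBayes, Benjamini-Hochberg adjustment over 28163 probes, threshold 0.05). The brightest probe over all arrays stood for a gene. Every member was named, with the statistics of other probes where they differed in call or by over 1 log2 unit. From other lists at most the 2 highest and 2 lowest genes of a role were named, and *Cd68*, *Cx3cr1*, *Ptprc*, *Gfap* and *Aqp4* from the marker lists. The members and lists were chosen with earlier results of these data known. Gene names and mm9 probe positions are those of the array files, and which exon or untranslated region a probe lies in was not analysed here. Spike-in scaling used 9 of 10 control probes, whose changes between groups ranged from -0.75 to 0.28. Differences between 2 genes were taken within arrays and compared by a two-sided exact permutation test. Promoter sequences came from RefSeq (GRCm38.p6) and were matched by symbol, *Ero1l* and *Ero1lb* through *Ero1a* and *Ero1b*. Alternatives were other tests, background corrections, scalings, filters and probe choices, a replicate block, and leaving out each array. The limma fit was checked on simulated data. The number of arrays limits the precision. The limma p-values rest on the spread between 2 arrays a group, moderated by the spread of all probes. With 1 array for each culture, differences between cultures and between arrays cannot be told apart.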

Additional observations from a re-analysis of the deposited data

How the results depend on the processing

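With spike-in scaling, 4 members were called higher and 22 lower, instead of 24 and 4, and these log2 changes turned negative: *Xbp1* -0.70, *Hspa5* -0.36, *Hsp90b1* -0.26, *Calr* -0.48, *Canx* -0.30, *Hyou1* -0.74, *Dnajb9* -0.16, *Dnajb11* -0.70, *Dnajc3* -0.84, *Sdf2l1* -0.84, *Manf* -0.54, *Creld2* -0.56, *Pdia3* -0.48, *Pdia4* -0.15, *Pdia6* -0.59, *P4hb* -0.071, *Ero1lb* -0.68, *Herpud1* -0.076, *Edem1* -1.03, *Derl1* -0.11 and *Derl2* -0.93. This scaling subtracts a constant from each array, so distances between genes did not move. With quantile normalization 14 were called higher, and *Atf6* was at 0.017, *Pdia6* at -0.17 and *Derl2* at -0.21. Normexp background correction put *Atf6* at 0.0079, *Edem2* at 0.13 and *Derl3* at 0.074, leaving out OGD replicate 2 put *Atf6* at 0.019, and the mean over probes put *Dnajc10* at 0.11. The cause was not tested. Over all probes, 10689 were called higher and 7645 lower, 17722 and 5369 with normexp, and 1263 and 23105 with spike-in scaling. The count of members called lower fell to 2 with the methods' t-test, with median scaling and without the filter on dim probes. Limits on size left 10 members higher at 2-fold and 2 at 10-fold, and 0 lower at either, whether by limma or by the methods' t-test, beside 5 members lower at an unadjusted p under 0.05 with no limit on size. Leaving out 1 array gave 15 to 23 members higher and 0 to 4 lower. Both settings with 0 lower left out an untreated array, and 1 member was lower there at an unadjusted p under 0.05. In those settings the lone untreated array was assumed to vary like the OGD arrays. Replicate numbers are shared between groups, but the labels do not say that they pair the cultures, and deviations of same-numbered arrays correlated at -0.057. With the replicate block 23 members were called higher and 2 lower. Kept outlier spots and the series table changed no member's call. Taking the most downstream probe or the probe brightest on untreated arrays, both chosen after seeing the data, gave 20 and 24 members higher and 5 and 4 lower.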
